A study of Mus musculus with 15 samples.

Results

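Loops of the T cell receptor (TCR) alpha chain that end in NAYKVI were followed through 15 libraries of mouse CD8+ T cells. The members were chosen by their sequence: all CDR3 peptides listed in any library whose last 6 residues are NAYKVI, the end given by the mouse joining segment Traj30. They made up 4134 of the 92219 distinct CDR3 peptides listed in the series. Tumour libraries together listed 439 of them, MP libraries 1080 and Naive libraries 3350. In the RefSeq gene table of GRCm38.p6, Traj30 lies on mouse chromosome 14 between Traj31 and Traj29, among 60 Traj segments. The end was singled out with earlier results of these data in view, so its share of reads is given here as a description, with no test.

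The 5 Tumour libraries came from CD8b+ CD4neg cells of the prostate tumours of 27-week-old TCRbtg TRAMP+/- males, sorted without a gate on CD44 or CD122. The 5 MP libraries came from CD8b+ CD4neg CD44hi CD122+ cells, and the 5 Naive libraries from CD8b+ CD4neg CD44lo CD122neg cells. For both, spleen and lymph nodes of 9-week-old TCRbtg males had been pooled. All mice were on the C57BL/6 background and carried the same transgenic TCR beta chain (TCRbtg), and their receptors differ in the alpha chain. TRAMP mice carry a transgene in which a probasin promoter drives viral T antigens in the prostate epithelium, and they develop prostate tumours. Tissue, age, genotype and sort gate therefore all differ between the Tumour libraries and the others and cannot be told apart. The files list CDR3 peptides and no gene expression, so the sorted cell types could not be checked against their markers.

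The CDR3 loop is the part of a TCR chain that lies over the peptide held by an MHC molecule. In the alpha chain it is made when a V segment is joined to a J segment: bases are trimmed from both ends and others are added at random before the ends are sealed. The residues at the start of a loop therefore come mostly from the V segment and those at its end from the J segment, with the join between them. By general knowledge of the mouse segment, the part of Traj30 that enters the loop can reach back to DTNAYKVI when little is trimmed. A loop ending in TNAYKVI without the D, or in NAYKVI without the T, has other residues at those places.

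The most abundant members of each group show the pattern that the values below describe. The following loops are the 3 with the highest mean share of reads in Tumour, MP and Naive libraries. The loop AASATNAYKVI ranked second in MP libraries as well as at the top in Tumour libraries and is printed under both.
Tumour, rank 1: AASATNAYKVI
Tumour, rank 2: AASRANAYKVI
Tumour, rank 3: AASAANAYKVI
MP, rank 1: AMDDTNAYKVI
MP, rank 2: AASATNAYKVI
MP, rank 3: AITNAYKVI
Naive, rank 1: AVRDTNAYKVI
Naive, rank 2: AASDTNAYKVI
Naive, rank 3: AVDTNAYKVI
All 3 Naive leaders keep the full DTNAYKVI end, and none of the 3 Tumour leaders does. The Tumour leaders share the start AAS and a length of 11 residues with the Naive loop AASDTNAYKVI. AASATNAYKVI differs from it at loop position 4 alone, and AASRANAYKVI and AASAANAYKVI differ from it at positions 4 and 5. Positions are counted from 1 at the start of the listed peptide.

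The libraries held 547665 to 943699 reads each. Tumour libraries listed 934 to 2657 distinct CDR3s, MP libraries 2216 to 13950 and Naive libraries 14914 to 29559. Among the MP libraries, MP 1 and MP 5 listed 12401 and 13950 and the other 3 listed 2216 to 3392. Reads of RNA do not separate a larger number of cells from more TCR alpha RNA per cell. Per the series' design text, the spleen and lymph node cells came from 5 mice and the tumours from 5 others. Whether an MP and a Naive library of the same number share a mouse is not stated, and p-values below measure the spread between libraries. Since no molecular identifiers are stated, PCR reads cannot be taken as independent molecules.

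NAYKVI loops took a larger share of the reads in Tumour libraries than in MP libraries, and a smaller share in MP than in Naive libraries. They made up 6.20, 11.3, 11.1, 12.5 and 8.03% of the reads of Tumour 1 to Tumour 5. The shares in MP 1 to MP 5 were 3.58, 2.77, 3.96, 4.16 and 3.09%, and those in Naive 1 to Naive 5 were 6.79, 5.94, 6.42, 6.67 and 7.11%. The means were 9.84 ± 2.62% in Tumour, 3.51 ± 0.584% in MP and 6.58 ± 0.439% in Naive libraries (SD, n = 5 each). Every Tumour library lay above every MP library and every MP library lay below every Naive library, while Tumour 1 lay among the Naive libraries.

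The same comparison over all 6-residue ends gives the background for this order. An end was kept for a pair of groups where its mean share over the libraries of both together was at least 0.1%. Of 46 such ends, 3 were higher in every Tumour library than in every MP library, which is 6.52%. These were GSWQLI, NAYKVI and SNYQLI, while 11 ends (23.9%) were lower in Tumour without overlap. Between MP and Naive libraries, 17 of 45 ends (37.8%) were lower in MP without overlap, so that the lower NAYKVI share in MP was one of many. Between Tumour and Naive libraries, GSWQLI alone of 42 ends (2.38%) was higher in Tumour without overlap. By share of reads, NAYKVI ranked 2 to 5 among all ends in Tumour libraries, 7 to 10 in MP libraries and 5 in every Naive library.

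**Figure D1:**
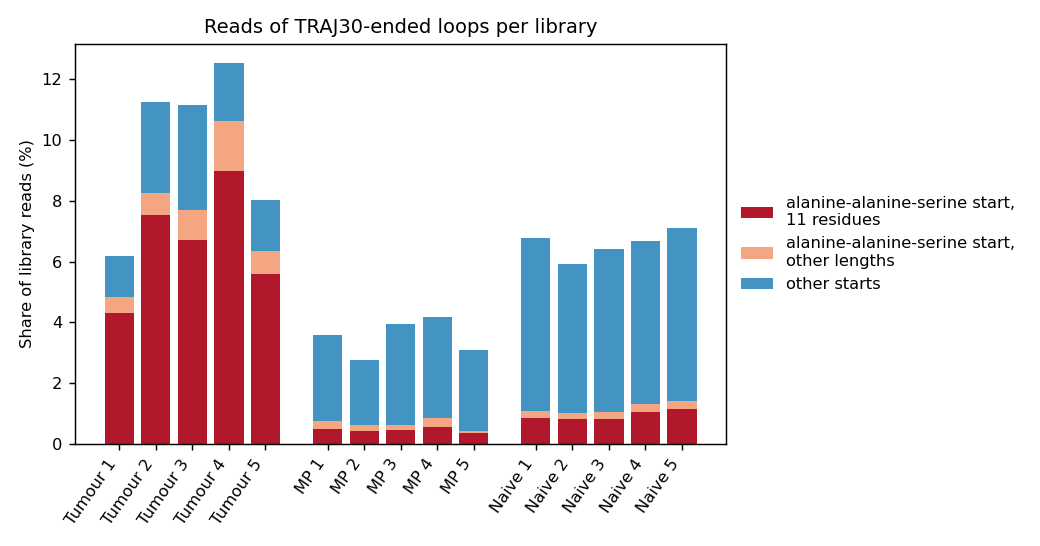
Share of each library's reads (%) in loops ending in NAYKVI, as 1 stacked bar for each Tumour, MP and Naive library, split into AAS loops of 11 residues, AAS loops of other lengths and loops with other starts. The Tumour bars run between 6.20 and 12.5% and the MP bars between 2.77 and 4.16%, and the AAS parts make up most of each Tumour bar.

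Counted by distinct CDR3s instead of reads, NAYKVI loops were 8.48 ± 1.05% of a Tumour list, 4.63 ± 0.790% of an MP list and 4.78 ± 0.235% of a Naive list (SD, n = 5 each). On this scale every Tumour library lay above all MP and Naive libraries, and the MP and Naive libraries overlapped. The difference between MP and Naive on this scale turned to 0.17 percentage points in favour of MP without MP 5. The Tumour lists held 106, 218, 92, 139 and 78 members, against 611, 148, 117, 153 and 471 in the MP lists and 1387, 668, 1287, 1201 and 1322 in the Naive lists. Between 34.4 and 70.5% of the members of a Tumour list differed by 1 residue from a CDR3 of the same library, member or not, with at least 100 times the reads. This part was 5.31 to 28.2% in MP lists and 10.2 to 12% in Naive lists, so that counts of rare distinct loops may hold reading errors, which was not tested.

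The end of the loop differed most plainly between the groups. The full DTNAYKVI end was carried by 14.1, 13.3, 18.0, 12.9 and 2.76% of the NAYKVI reads of Tumour 1 to 5. It was carried by 50.7, 47.7, 51.5, 41.7 and 49.5% in MP 1 to 5, and by 74.1, 73.9, 74.1, 71.4 and 73.0% in Naive 1 to 5. The 3 groups did not overlap, with means of 12.2 ± 5.65% in Tumour, 48.2 ± 3.93% in MP and 73.3 ± 1.13% in Naive libraries (SD, n = 5 each). Loops that held the T but not the D took 54.3 ± 5.54% of NAYKVI reads in Tumour, 38.8 ± 7.11% in MP and 18.6 ± 1.21% in Naive libraries. For these, Tumour and MP libraries overlapped, with Tumour 4 at 45.0% and MP 4 at 46.0%, and both groups lay above Naive. Loops without the T took 33.5 ± 6.67% in Tumour, 12.9 ± 5.06% in MP and 8.11 ± 0.345% in Naive libraries, without overlap between any pair of groups.

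Most of the Tumour reads without the T had an alanine in its place. Loops with A directly before NAYKVI took 27.6 ± 6.34% of NAYKVI reads in Tumour libraries, 3.83 ± 1.54% in MP libraries and 1.20 ± 0.127% in Naive libraries (SD, n = 5 each), with no overlap. The lowest Tumour library was at 19.4% and the highest MP library at 5.75%. The order of the full end was the same by distinct loops: 18.5 ± 8.48% of the members of a Tumour list, 40.9 ± 4.70% of an MP list and 52.3 ± 0.510% of a Naive list carried it.

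**Figure D2:**
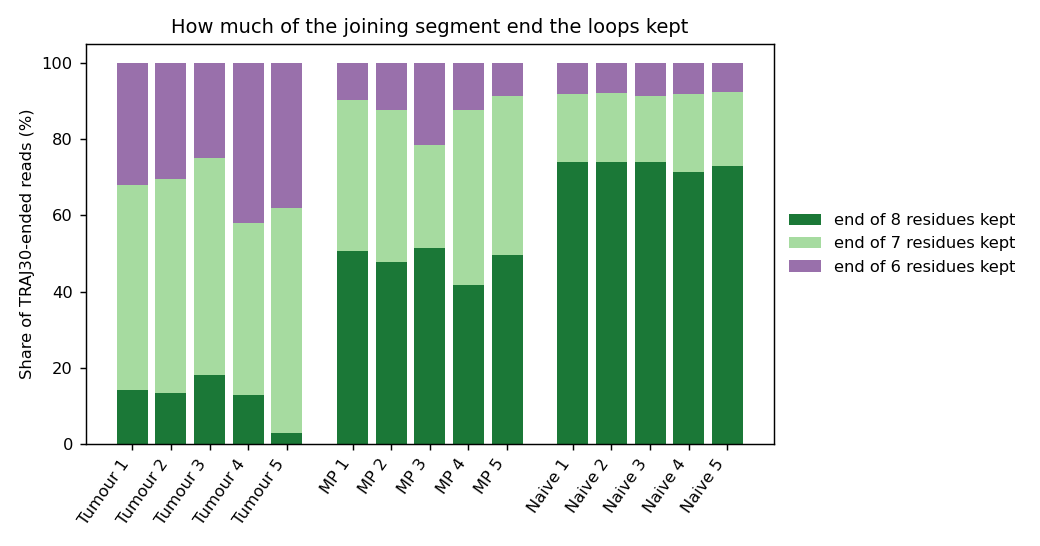
Share of NAYKVI reads (%) in each library by the end of the loop: DTNAYKVI (end of 8 residues), TNAYKVI without the D (end of 7) and NAYKVI without the T (end of 6), as 1 stacked bar per library. The end of 8 residues takes 2.76 to 18.0% in Tumour, 41.7 to 51.5% in MP libraries and 71.4 to 74.1% in Naive libraries.

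The start of the loop set the Tumour libraries apart from both other groups. Loops beginning with AAS took 77.9, 73.2, 69.0, 84.8 and 78.9% of the NAYKVI reads of Tumour 1 to 5. Their share was 18.7 ± 3.41% in MP libraries, with a range of 14.2 to 22.0%, and 17.7 ± 1.94% in Naive libraries, with a range of 15.9 to 20.0% (SD, n = 5 each). The lowest Tumour library was therefore far above the highest of the other 10, and MP and Naive libraries overlapped. Among the reads of all other CDR3s, the AAS start took 15.2 ± 2.58% in Tumour, 14.6 ± 1.78% in MP and 20.5 ± 2.40% in Naive libraries and overlapped between Tumour libraries and each of the others. By distinct CDR3, the AAS start took 15.9 ± 0.481% of the other CDR3s in Tumour, 11.2 ± 0.963% in MP and 13 ± 1.48% in Naive libraries, with Tumour above both without overlap. NAYKVI loops were 35.4% of all AAS reads in Tumour libraries on average, 4.48% in MP and 5.75% in Naive libraries.

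Without the AAS loops, the remaining NAYKVI loops took 2.29 ± 0.899% of the reads of Tumour libraries, 2.86 ± 0.491% of MP and 5.41 ± 0.317% of Naive libraries (SD, n = 5 each). The higher share of NAYKVI in Tumour than in MP libraries is thus not present among loops with other starts. The set was chosen after its values were seen. Loops starting with AV took 8.19% of NAYKVI reads in Tumour libraries on average, 9.74% in MP and 30.9% in Naive libraries. Loops starting with AL took 5.28, 23.0 and 24.1% in the same order of Tumour, MP and Naive libraries. Loops starting with AM averaged 0.182% in Tumour, 21.0% in MP and 4.36% in Naive libraries, and most of the MP value was the single loop AMDDTNAYKVI.

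The AAS loops of 11 residues, which have NAYKVI after 2 free positions, were looked at residue by residue, as a description chosen after their values were seen. They took 6.62 ± 1.78% of all reads in Tumour libraries, 0.461 ± 0.0725% in MP libraries and 0.937 ± 0.148% in Naive libraries (SD, n = 5 each). The range in Tumour libraries, 4.32 to 8.97%, lay above the range of 0.369 to 1.15% over all MP and Naive libraries. Of the 400 possible residue pairs, the Tumour libraries listed 67, the MP libraries 34 and the Naive libraries 53. These counts include rare neighbours of abundant loops: 7 Tumour loops with isoleucine (I) at position 5 held 0.0246% of these reads on average. The counts may therefore hold reading errors, more so in Tumour lists, which was not tested.

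At loop position 4 almost all reads of these loops in Naive libraries had an acidic residue. Aspartate and glutamate (D and E) together took 97.3 ± 1.08% of these reads in Naive libraries, against 4.18 ± 2.70% in Tumour and 3.49 ± 3.86% in MP libraries (SD, n = 5 each). In Naive libraries D took 69.8% and E 27.5%, and AASDTNAYKVI alone took 69.1 ± 1.51%. By number, 9 of the 53 such loops listed in Naive libraries held D and 4 held E, so the read shares follow a few abundant loops. In MP libraries A took 63.7 ± 4.97% and asparagine (N) 23.2 ± 7.12%. These were mostly reads of AASATNAYKVI and AASNTNAYKVI, which averaged 0.289 and 0.104% of all reads in MP libraries. In Tumour libraries A took 44.6 ± 10.9%, followed by valine (V) at 12.6%, glycine (G) at 11.1%, arginine (R) at 11% and serine (S) at 6.61%. At position 5, alanine took 38.6 ± 6.82% in Tumour libraries, 1.04 ± 1.20% in MP libraries and 0.922% in Naive libraries. The highest acidic shares outside Naive libraries were 8.78% in Tumour 1 and 10.3% in MP 3. For alanine at position 5, the lowest Tumour library was at 32.2% and the highest MP library at 2.66%.

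**Figure D3:**
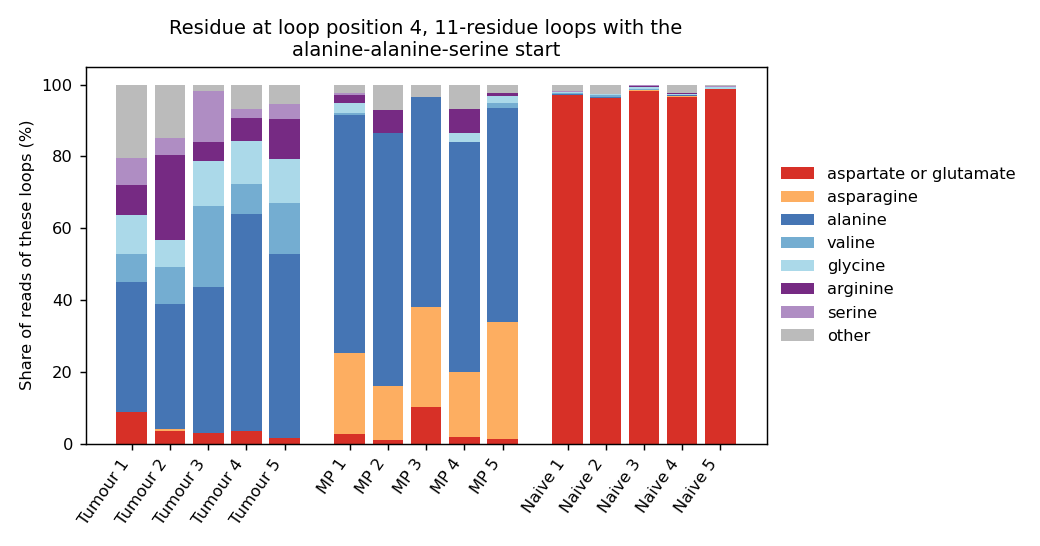
Residue at loop position 4 in AAS loops of 11 residues that end in NAYKVI, as the share of the reads of these loops (%), 1 stacked bar for each Tumour, MP and Naive library. Aspartate and glutamate average 97.3% in Naive libraries and 4.18 and 3.49% in Tumour and MP libraries.

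Each member was then compared between groups with edgeR's quasi-likelihood test, fitted over every CDR3 that reached 10 reads in 3 or more libraries and adjusted over all of them by Benjamini-Hochberg. A CDR3 was called at an adjusted p under 0.05. The 3 comparisons share libraries, so their calls are not independent of each other. An alternative fit took the library number as a block. In comparisons with Tumour libraries it pairs different mice, so the pairing there is arbitrary. Few members passed the filter on low counts, and those that passed only through the group where they are high had to differ, so the counts are set beside those over all CDR3s.

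Between MP and Naive libraries, 318 of the 3890 members listed in either were tested. In MP, 33 were higher (10.4%) and 144 lower (45.3%), against 12.6% higher and 48.1% lower of all 5954 CDR3s tested. No Naive library listed 12 of these 33, and no MP library listed 104 of these 144. The median log2 fold change was -2.77 over the members tested and -3.35 over all CDR3s tested. The shares of calls are thus near the background in both directions. Without MP 1 the higher count was 20 (7.07%, beside 9.68% of all CDR3s) and without MP 4 it was 22 (7.38%, beside 11.6%). Without any 1 of the Naive libraries it was 19 to 20 (6.74 to 7.60%, beside 10.1 to 10.8%). By the end of the loop, 5 of 176 members with the full DTNAYKVI end were higher in MP and 88 lower (2.84 and 50%). The share called lower was thus near the 48.1% of all CDR3s. No Naive library listed 1 of these 5, and no MP library listed 62 of these 88. Of 112 members with the T but not the D, 17 were higher and 46 lower (15.2 and 41.1%). No Naive library listed 6 of these 17, and no MP library listed 36 of these 46. Of 30 members without the T, 11 were higher and 10 lower (36.7 and 33.3%). Among them, 5 of the 11 were listed in no Naive library and 6 of the 10 in no MP library. Of 29 members with 9 or fewer residues, 9 were higher in MP and 3 lower (31.0 and 10.3%). Among these, 1 of the 9 was listed in no Naive library and 2 of the 3 in no MP library. Members that 1 group did not list passed the filter through the other group alone.

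The leading MP loop was AMDDTNAYKVI. It took 0.665, 0.419, 0.491, 0.596 and 0.817% of the reads of MP 1 to 5, against 0.00825, 0.0128, 0.0131, 0.00923 and 0.00754% in Naive 1 to 5. It was the most abundant member of every MP library, and the groups did not overlap. It was higher in MP at a log2 fold change of 5.87 ± 0.49 (SE, with edgeR's adjusted p = 0.000189). No Tumour library listed it. Against a floor of 3 reads per library it was at least 1532-fold lower in Tumour than in MP libraries.

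AASATNAYKVI, the leading Tumour loop, was also high in MP libraries. It took 1.39, 2.33, 2.32, 2.98 and 2.08% of the reads of Tumour 1 to 5 and 0.318, 0.303, 0.264, 0.347 and 0.212% in MP 1 to 5. In Naive libraries it had 4 reads each in Naive 1 and Naive 2 and was not listed in the other 3. The 3 groups did not overlap. MP was above Naive by a log2 fold change of 10.01 ± 1.41 (SE, with edgeR's adjusted p = 0.000662) and Tumour above Naive by 12.96 ± 1.77 (edgeR adjusted p = 8.9e-05). Tumour was above MP by 7.68-fold, a log2 fold change of 2.94 ± 1.13 with an edgeR adjusted p of 0.0304. That last call was lost with TMM scaling (adjusted p = 0.201), without the filter on low counts (0.163) and with library number as a block (0.243), where the adjusted p lay between 0.0109 and 0.243 over all alternatives.

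Several further MP leaders were short loops. AITNAYKVI, of 9 residues, had 0.145, 0.0268, 0.0475, 0.231 and 0.361% of the reads of MP 1 to 5, and no more than 0.0011% in any Naive library. Its log2 fold change was 8.64 ± 1.48 for MP against Naive (SE, with edgeR's adjusted p = 0.000905). It was not listed in Tumour libraries and was at least 415-fold lower there than in MP. ADTNAYKVI, also of 9 residues, averaged 0.108 ± 0.0569% in MP and 0.0132 ± 0.00549% in Naive libraries (SD, n = 5 each), a log2 fold change of 3.03 ± 0.70 (SE, with edgeR's adjusted p = 0.0041). The adjusted p lay between 0.000124 and 0.156 over the alternatives, and the call was lost with the library number as a block. ALNAYKVI averaged 0.095 ± 0.112% in MP and 0.00213 ± 0.00118% in Naive libraries and was not listed in MP 4. It was higher in MP at an edgeR adjusted p of 0.0149, and of 0.000153 to 0.168 over the alternatives, with the highest under the block. Loops of 9 residues took 14.7% of NAYKVI reads in MP libraries on average, 0.105% in Tumour and 1.57% in Naive libraries.

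AASNTNAYKVI had the AAS start and an N at position 4. It took 0.109, 0.0644, 0.126, 0.102 and 0.12% of the reads of MP 1 to 5 and at most 0.00127% in a Naive library, and it was not listed in Tumour libraries. MP was above Naive by a log2 fold change of 7.11 ± 1.06 (SE, with edgeR's adjusted p = 0.000662). In Tumour it was at least 267-fold lower than in MP. It and AASATNAYKVI were the AAS loops among the 10 MP leaders, and of this pair AASATNAYKVI alone was listed in Tumour libraries.

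Other loops named for MP, as leaders or for their fold over Naive, varied between libraries. ALVDTNAYKVI averaged 0.117 ± 0.112% in MP and 0.00143 ± 0.00103% in Naive libraries (SD, n = 5 each), with an edgeR adjusted p of 0.00498. ALDLTNAYKVI was not listed in Naive or Tumour libraries and averaged 0.0608 ± 0.0479% in MP, at least 121-fold above Naive. ALANAYKVI averaged 0.0501 ± 0.0491% in MP and 0.000498 ± 0.000554% in Naive libraries (edgeR adjusted p = 0.012). AVSRSDTNAYKVI rested on MP 3, with 0.352% there, at most 0.0409% in the other MP libraries and no reads listed in Naive or Tumour libraries. It was at least 170-fold above Naive in MP, and at least 37.2-fold without MP 3. AFTNAYKVI had an adjusted p of 0.0242, which lay between 0.0514 and 0.0539 without Naive 2, 3, 4 or 5. AFPDTNAYKVI, which had 0.0142 to 0.0721% in the MP libraries, was higher than in Naive at an edgeR adjusted p of 0.00312.

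The leading Naive loop was AVRDTNAYKVI, which took 1.31, 1.28, 1.26, 1.16 and 1.15% of the reads of Naive 1 to 5. In MP 1 to 5 it had 0.00771, 0.0119, 0.027, 0 and 0.013%. It ranked at place 2 or 3 among all CDR3s of every Naive library. MP lay below Naive by a log2 fold change of -6.69 ± 1.25 (SE, with edgeR's adjusted p = 0.00132). In Tumour 1 to 5 it had 0.000268, 0.0426, 0.212, 0 and 0%. For Tumour against Naive the log2 fold change was -4.60 ± 2.19 with an edgeR adjusted p of 0.0686, which did not pass. Without Tumour 3 the adjusted p was 0.0212, and it was 0.000616 to 0.0220 with DESeq2, TMM or the block.

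AASDTNAYKVI, the AAS loop with the full end, took 0.609, 0.562, 0.570, 0.695 and 0.8% of the reads of Naive 1 to 5 and at most 0.0127% in an MP library. Its only Tumour reads were 2 in Tumour 1. It fell below Naive by a log2 fold change of -6.60 ± 1.21 in MP (SE, with edgeR's adjusted p = 0.00119) and of -13.16 ± 1.53 in Tumour (edgeR adjusted p = 3.4e-05). AASETNAYKVI, with E in place of D, averaged 0.258 ± 0.0505% in Naive libraries (SD, n = 5) and was listed in MP 3 alone of the MP libraries, at 0.0324%. Its edgeR adjusted p for MP against Naive was 0.0603, and without MP 3 it was 0.000482 and with the block 0.00124. No Tumour library listed AASETNAYKVI, which put it at least 661-fold below Naive there.

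AVDTNAYKVI averaged 0.0445 ± 0.0154% in MP and 0.585 ± 0.0989% in Naive libraries (SD, n = 5 each), a log2 fold change of -3.72 ± 0.45 (SE, with edgeR's adjusted p = 0.000662). All 5 MP libraries listed it and no Tumour library did. ALSDTNAYKVI averaged 0.00165% in MP and 0.376% in Naive libraries (edgeR adjusted p = 0.00133). ATDEDTNAYKVI was listed in no MP and no Tumour library and averaged 0.0931 ± 0.0129% in Naive libraries, at least 213-fold above MP and at least 239-fold above Tumour. AAHDTNAYKVI and AMREGYDTNAYKVI, at 0.0924 and 0.0552% on average in Naive libraries, had only 0.000127 and 0.000253% in MP libraries, with edgeR adjusted p-values of 0.000662 and 0.00131.

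Of the other Naive leaders, ALEPNAYKVI was listed in MP 1 alone of the MP libraries. Its edgeR adjusted p of 0.0338 became 0.0561 to 0.0588 without any 1 Naive library. AARDTNAYKVI had an adjusted p of 0.0356, which lay between 0.0533 and 0.0727 without MP 4, without MP 5 or without any 1 Naive library and was 0.0838 with the block. ALDPNAYKVI did not pass for MP against Naive, at 0.0712, but did without MP 4, at 0.0154, without the filter, at 0.0482, and with the block, at 0.0247. ALNTNAYKVI averaged 0.000133% in MP and 0.00231% in Naive libraries and was lower in MP at an edgeR adjusted p of 0.0305. It was no longer called without Naive 1, 3, 4 or 5, at adjusted p-values of 0.0539 to 0.0592, without the filter (0.0615) or with the block (0.0904). AVGTNAYKVI was not listed in MP libraries and averaged 0.00227% in Naive libraries.

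**Figure D4:**
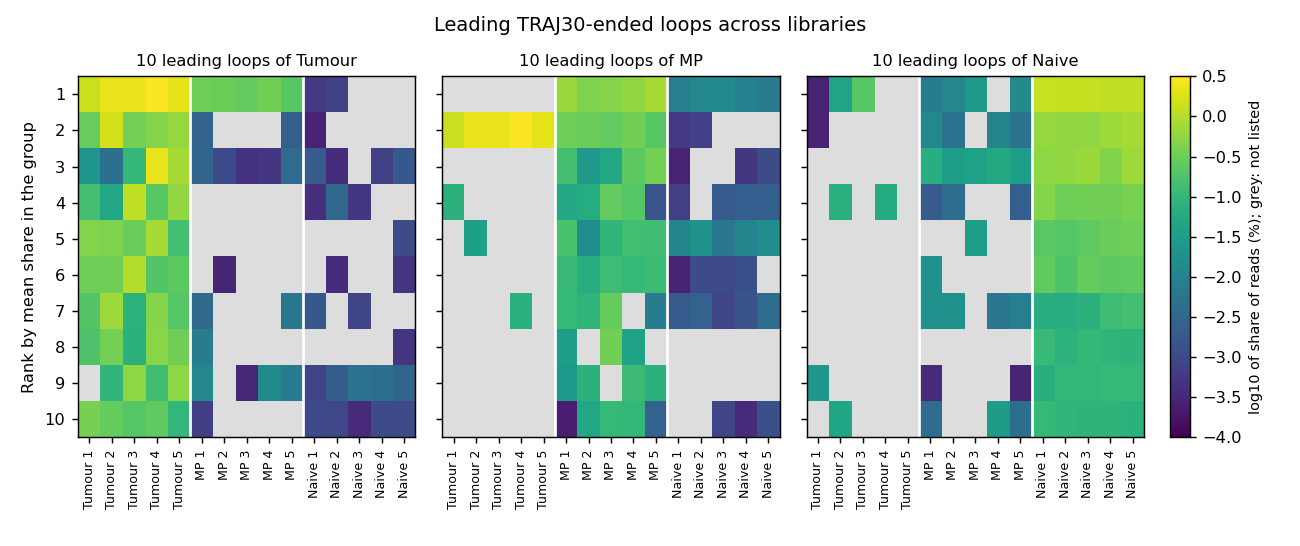
Log10 of the share of reads (%) of the 10 most abundant members of Tumour, MP and Naive libraries, 1 panel per group with rank down the page, in each of the 15 libraries (grey where not listed). The 10 Tumour leaders sum to 5.91% of the reads in Tumour, 0.302% in MP and 0.00699% in Naive libraries on average. Each panel's loops were picked for a high share in that group. The 10 Naive leaders sum to 3.71% in Naive libraries and to 0.0933 and 0.0914% in MP and Tumour ones. The 10 MP leaders sum to 1.67% in MP libraries, 0.0288% in Naive ones and 2.26% in Tumour ones.

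Between Tumour and MP libraries, 107 of the 1390 members listed in either were tested. In Tumour, 19 were higher (17.8%) and 46 lower (43.0%), against 7.68% higher and 66.0% lower of all 1666 CDR3s tested. The median log2 fold change was -2.74 over the members tested and -7.57 over all CDR3s tested. Of the 40 tested members with the AAS start, 18 were higher in Tumour and 8 lower, and of the 26 AAS loops of 11 residues among them, 15 were higher and 2 lower. No MP library listed 8 of these 18 and 7 of these 15, which passed the filter through Tumour libraries alone. No Tumour library listed 6 of the 8 and 1 of the 2 that were lower. Of 16 tested members with A before NAYKVI, 9 were higher and 6 lower. No MP library listed 6 of these 9, and no Tumour library listed the 6 lower ones. None of the 35 tested members with the full DTNAYKVI end was higher. Of these 35, 13 (37.1%) were lower, a smaller share than the 66.0% of all CDR3s. No Tumour library listed 12 of these 13. Of 35 tested members with 10 or fewer residues, none was higher and 22 (62.9%) were lower, which is near the share of all CDR3s, and no Tumour library listed 21 of these. The lower count was 22 of 71 tested without MP 1 (31.0%, beside 54.6% of all CDR3s). It was 26 of 80 without MP 5 (32.5%, beside 54.1%), and these were the MP libraries with the longest lists. The higher count was 10 and the lower count 11 with the library number as a block (9.35 and 10.3%, beside 3.42 and 15.9% of all CDR3s).

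Between Tumour and Naive libraries, 274 of the 3625 members listed in either were tested. In Tumour, 25 were higher (9.12%) and 208 lower (75.9%), against 3.38% higher and 86.7% lower of all 4671 CDR3s tested. The median log2 fold change was -7.18 over the members tested and -7.42 over all CDR3s tested. Of the 45 tested members with the AAS start, 23 were higher in Tumour and 19 lower, and of the 23 AAS loops of 11 residues among them, 18 were higher and 3 lower. No Naive library listed 7 of the 23 higher AAS loops and 6 of these 18, which passed the filter through Tumour libraries alone. No Tumour library listed 15 of the 19 and 2 of the 3 that were lower. Of 157 tested members with the full end, none was higher and 129 (82.2%) were lower, beside 86.7% of all CDR3s. No Tumour library listed 119 of these 129, which passed the filter through Naive libraries alone. The higher count was 17 to 26 with each library left out in turn (6.49 to 10.9% of the members tested, beside 2.33 to 3.79% of all CDR3s).

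The 10 Tumour leaders all start with AAS. Together they took 60.0 ± 7.27% of the NAYKVI reads of Tumour libraries (SD, n = 5), 8.72 ± 1.72% of those of MP and 0.107 ± 0.0133% of those of Naive libraries. These 10 were picked for a high Tumour share, so a lower share in the other groups follows in part from the pick. The 10 Naive leaders took 56.4% of NAYKVI reads in their own group, 2.66% of those of MP and 0.842% of those of Tumour libraries. The 10 MP leaders, AASATNAYKVI among them, took 47.4% of these reads in MP libraries, 0.442% in Naive ones and 23.1% in Tumour ones. Every one of the 10 Tumour leaders was listed in some Naive library, and 8 were listed in some MP library. After AASATNAYKVI their order differed from tumour to tumour.

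AASRANAYKVI, with R and A at positions 4 and 5, took 0.281, 1.64, 0.366, 0.463 and 0.625% of the reads of Tumour 1 to 5. It had 0.00272 and 0.00234% in MP 1 and MP 5, 2 reads in Naive 1, and was not listed in the other MP and Naive libraries. Tumour 2 was the highest and all 5 tumours lay above the other 10 libraries. Tumour was above MP by a log2 fold change of 9.35 ± 2.36 (SE, with edgeR's adjusted p = 0.0118).

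AASAANAYKVI, with A at both positions, took 0.0229, 0.00449, 0.0992, 2.27 and 0.783% in Tumour 1 to 5. In MP libraries it ran between 0.000448 and 0.0038% and in Naive libraries between 0 and 0.00199%. It was thus high in Tumour 4 and Tumour 5 and low in Tumour 2, though above every MP and Naive library in each tumour. Its Tumour 2 value is 35 reads, where AASATNAYKVI, 1 residue away, had 18128, so these reads may be errors, which was not tested. AASAANAYKVI was higher in Tumour than in MP by a log2 fold change of 8.49 ± 2.17 (SE, with edgeR's adjusted p = 0.0124). The adjusted p lay between 1.68e-05 and 0.0862 over the alternatives, with the call lost under the block.

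AASVANAYKVI took 0.147, 0.0492, 1.18, 0.21 and 0.58% of the reads of Tumour 1 to 5, and AASGANAYKVI took 0.466, 0.42, 0.306, 0.776 and 0.146%. No MP library listed either of them, so that Tumour was at least 991-fold above MP for AASVANAYKVI, or at least 563-fold without Tumour 3, and at least 965-fold above MP for AASGANAYKVI. In Naive libraries AASVANAYKVI reached 0.0031% in Naive 2, and AASGANAYKVI had 0.0011% in Naive 5 alone. AASEANAYKVI, with E at position 4, averaged 0.241 ± 0.103% in Tumour and 0.000889 ± 0.000311% in Naive libraries (SD, n = 5 each), where all 5 listed it, and had 6 reads in MP 1 alone of the MP libraries. It was above Naive by a log2 fold change of 8.05 ± 0.65 (SE, with edgeR's adjusted p = 1.3e-05).

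The Tumour leaders with T before NAYKVI differed in how widely the other libraries listed them. AASSTNAYKVI took 0.325, 0.331, 0.942, 0.195 and 0.233% in Tumour 1 to 5, with 2 reads in 1 MP library and 2 and 3 reads in 2 Naive libraries (edgeR adjusted p = 0.0101 for Tumour against MP). AASVTNAYKVI took 0.2, 0.707, 0.0818, 0.457 and 0.202% in Tumour 1 to 5 and at most 0.00599% in an MP library (edgeR adjusted p = 0.0179). AASGTNAYKVI was not listed in Tumour 1 and took 0.0918, 0.537, 0.129 and 0.546% in Tumour 2 to 5. Its edgeR adjusted p for Tumour against MP was 0.0511, and it was 0.0283 without Tumour 1 and 0.0465 without Tumour 2. Against Naive libraries AASGTNAYKVI was higher at an edgeR adjusted p of 0.00597, with a range of 4.17e-05 to 0.0921 over the alternatives and the highest under the block.

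Loops of 12 residues with the AAS start took part as well. AASESTNAYKVI took 0.177, 0.366, 0.0791, 0.506 and 0.335% in Tumour 1 to 5, with 0.00794% in MP 1, 3 reads in Naive 5 and no listing in the other 8 libraries. It was higher in Tumour than in MP at an edgeR adjusted p of 0.0183. AASASTNAYKVI averaged 0.206 ± 0.211% in Tumour, 0.00146 ± 0.00219% in MP and 0.00117 ± 0.00108% in Naive libraries (SD, n = 5 each), with edgeR adjusted p-values of 0.0169 against MP and 0.0025 against Naive. The call against MP was lost under the block (0.056) and without MP 1 and MP 5 together (0.0789). AASASANAYKVI, which has A in place of that T, went the other way. It averaged 0.000102 ± 0.000141% in Tumour, 0.00308 ± 0.00634% in MP and 0.00141 ± 0.000829% in Naive libraries (SD, n = 5 each). It was lower in Tumour than in Naive at an edgeR adjusted p of 0.006. Its Tumour mean lay under the floor of 3 reads per library, 0.00039%, and its MP value varied widely between libraries. AASEGTNAYKVI was also lower in Tumour than in Naive libraries, at 0.00043 and 0.00615% on average (edgeR adjusted p = 0.0134). The AAS start was thus not higher in Tumour in every member.

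Some members recurred in every tumour. Of the 439 members listed in Tumour libraries, 13 (2.96%) were listed in all 5 and took 61.3 ± 4.66% of the NAYKVI reads (SD, n = 5). Of the 5707 other CDR3s listed in Tumour libraries, 57 (0.999%) were in all 5 and took 32.6 ± 9.83% of the other reads. The lowest tumour was at 57.0% for NAYKVI loops and the highest at 47.5% for the other CDR3s, so these shares did not overlap. All 13 recurrent members start with AAS, 11 have 11 residues, 5 have T and 5 have A before NAYKVI, and none has the full end. They include AASAGNAYKVI, AASASNAYKVI and AASAINAYKVI, which are outside the 10 leaders and are named here after their values were seen. AASAINAYKVI had only 3 to 28 reads in each tumour. When loops that differ by 1 residue from one with at least 100 times the reads were folded into it, 9 of 236 members were listed in all 5 tumours and took 53.9 ± 3.02% of the NAYKVI reads, against 24 of 3169 other CDR3s with 31.4 ± 9.77% of theirs (SD, n = 5 each). The 4 members that dropped out were AASAANAYKVI, AASAGNAYKVI, AASASNAYKVI and AASAINAYKVI. MP libraries did not list 4 of the 13, Naive libraries did not list 2, and AASASNAYKVI was listed in neither.

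In MP libraries the share of recurrent loops ran the other way. The 17 members listed in all 5 MP libraries took 48.8 ± 6.64% of the NAYKVI reads there, against 66.4 ± 1.53% for the 466 other CDR3s in all 5 (SD, n = 5 each). In Naive libraries 236 of 3350 members were in all 5 and took 84.7 ± 1.57% of the NAYKVI reads, against 78.3 ± 0.557% for the 4204 other CDR3s in all 5. How often a loop is listed depends on the number of reads and cells behind a library, and cell numbers were not given in the sources used here.

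**Figure D5:**
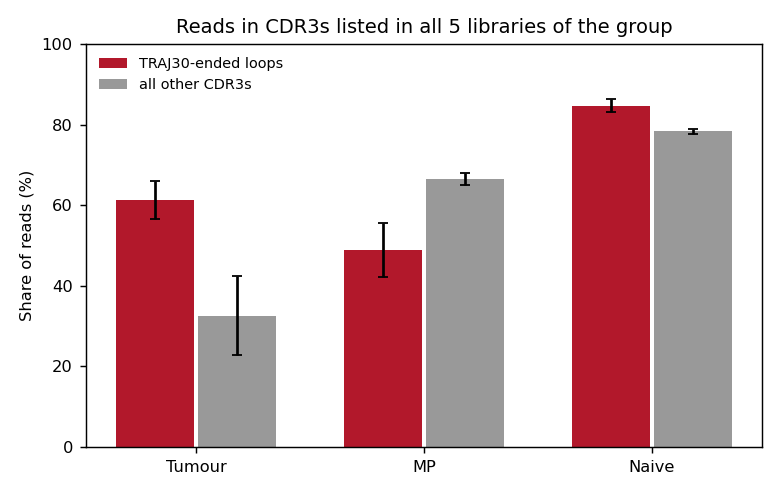
Share of reads (%) taken by CDR3s listed in all 5 libraries of their group, for NAYKVI loops and for all other CDR3s, each as a share of its own reads, in Tumour, MP and Naive libraries (bars for the mean, error bars for the SD, n = 5 each). In Tumour libraries the NAYKVI loops stand at 61.3% and the other CDR3s at 32.6%.

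Most reads of Tumour NAYKVI loops belonged to loops that other groups listed too. Loops listed in some Naive library took 81.3 ± 5.41% of the NAYKVI reads of Tumour libraries and loops listed in some MP library 69.1 ± 4.67% (SD, n = 5 each). For the other CDR3s of Tumour libraries these shares were 55.8 ± 14.6% and 52.7 ± 11.6%. A listing can rest on few reads. AASATNAYKVI, with 22.7% of the Tumour NAYKVI reads on average, had 4 reads each in Naive 1 and Naive 2. AASRANAYKVI had 2 reads in Naive 1 alone of the Naive libraries. Being listed in both groups therefore does not show a comparable abundance in them. By number, 244 of the 439 Tumour members (55.6%) were listed in neither MP nor Naive libraries. They took 13.7 ± 4.83% of the NAYKVI reads, and the corresponding 3391 of 5707 other CDR3s took 35.5 ± 14.1% of the other reads. The highest tumour for NAYKVI loops was at 19.3% and the lowest for other CDR3s at 24.7%. Of the NAYKVI reads of MP libraries, 81.9 ± 3.33% belonged to loops listed in some Naive library and 26.9 ± 4.32% to loops listed in some Tumour library.

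The spread of NAYKVI reads over members was measured in 3 ways. The 10 most abundant members of each library took 72.4% of its NAYKVI reads on average in Tumour, 54.0% in MP and 56.7% in Naive libraries. The Shannon entropy over members averaged 4.35 bits in Tumour, 5.65 bits in MP and 6.25 bits in Naive libraries. Both values depend on the number of members listed. Entropy divided by its highest possible value for that number was 0.633 ± 0.0331 in Tumour, 0.721 ± 0.0604 in MP and 0.616 ± 0.0143 in Naive libraries (SD, n = 5 each), and all 3 groups overlapped. Loops of 11 residues took 76.8% of NAYKVI reads in Tumour, 45.6% in MP and 55.2% in Naive libraries, and 42.4, 30.8 and 30.2% of the reads of the other CDR3s in Tumour, MP and Naive libraries. The mean net charge of a loop, K and R counted against D and E and weighted by reads, was 0.928 ± 0.107 in Tumour, 0.320 ± 0.0921 in MP and 0.352 ± 0.0169 in Naive libraries (SD, n = 5 each). The other CDR3s averaged 0.679 in Tumour, 0.625 in MP and 0.549 in Naive libraries. NAYKVI loops thus carried a higher mean charge than the other CDR3s in Tumour libraries on average and a lower one in MP and Naive libraries.

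The rule left out loops that end in AYKVI without the N. There were 365 of them, and they took 0.106 ± 0.0783% of the reads in Tumour, 0.218 ± 0.0903% in MP and 0.0698 ± 0.00997% in Naive libraries (SD, n = 5 each). These values are small beside the share of the NAYKVI loops in every group.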

How the data were processed

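The authors deposited 1 list per library with the count of reads of each CDR3 peptide, without normalization, and each list was taken as 1 sample. Per the labels, Trizol was used on the sorted cells and the company iRepertoire prepared the libraries from the RNA by multiplex PCR (arm-PCR). The aligner, the CDR3 caller, error filters and molecular identifiers were not given in the sources used here. Listed counts started at 2, so a CDR3 that is not listed may have had fewer reads. The depth of a library was the sum of its counts.

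Members were tested as part of all CDR3s with edgeR 4.0.16 (limma 3.58.1, R 4.3.3): quasi-likelihood with robust dispersions, total reads as library size without TMM, at least 10 reads in at least 3 libraries of the pair, and Benjamini-Hochberg adjustment over all CDR3s tested. Each pair of groups was fitted alone, and the script was tested on simulated data. Alternatives were TMM, DESeq2 1.42.0, at least 50 reads, no filter (at least 1 read in at least 2 libraries), leaving out each library, and the library number as a block. For shares they were loops of at least 10 reads, folding of loops that differ by 1 residue from one with 100 times the reads, leaving out the top member, and weighting by distinct loop. Added after seeing the data were the fits without MP 1 and MP 5 together, the shares without AAS loops, the folding of loops found in all libraries, and lower bounds with each library left out. Shares and figures were made in python 3.11.15 using pandas 2.3.3, numpy 2.4.6, scipy 1.17.1 and matplotlib 3.10.9. Where a group listed no reads of a loop, folds were taken against 3 reads per library, which is 0.00039% of the reads in Tumour, 0.000438% in MP and 0.000502% in Naive libraries, and such floors cover counting error only.

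The members and lists were chosen with earlier results of these data known. By rule, the named loops were the 10 with the highest mean share in each group and, for each comparison, the 5 largest called log2 fold changes each way among loops listed in at least 2 libraries of both groups, 37 in all. The AAS loops, their positions 4 and 5, and the loops found in all 5 tumours were picked after seeing values. The end DTNAYKVI was taken from general knowledge and was not checked against a reference sequence. MP and Naive libraries of the same number had deviations that correlated at r = 0.0125 to 0.047 across CDR3s. The labels do not say which libraries share a mouse, and these small values cannot decide it. The libraries were treated as unpaired, with the library number as a block as an alternative.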

Additional observations from a re-analysis of the deposited data

Results flagged for a closer look

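In 14 of the 94 sets of 5 libraries checked, 1 library stood apart from the other 4 by Dixon's criterion, which chance meets in about 5% of sets. Reads without the T took 21.5% of the NAYKVI reads in MP 3, against 8.77 to 12.4% in the other MP libraries. Naive 2 listed 668 members, against 1201 to 1387 in the other Naive libraries.

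Among single loops in Tumour libraries, AASRANAYKVI was at 1.64% of the reads in Tumour 2 and 0.281 to 0.625% in the others. AASSTNAYKVI was at 0.942% in Tumour 3 and 0.195 to 0.331% in the others. AVRDTNAYKVI was at 0.212% in Tumour 3 and at most 0.0426% in the others.

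In MP libraries, AVSRSDTNAYKVI was at 0.352% and AFPDTNAYKVI at 0.0721% in MP 3, where the other libraries reached 0.0409 and 0.027%. In MP 4, AFTNAYKVI was at 0.127%, ALDPNAYKVI at 0.0292% and AASASTNAYKVI at 0.00522%, with at most 0.0315, 0.00424 and 0.00147% in the others.

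In Naive libraries, AAHDTNAYKVI was at 0.0652% in Naive 1 and 0.0942 to 0.105% in the others. AASEANAYKVI was at 0.000348% in Naive 3 and 0.000913 to 0.0011% in the others. AASVANAYKVI was at 0.0031% in Naive 2 and at most 0.000522% in the others, and ALNTNAYKVI was not listed in Naive 2 (0%) but had 0.0027 to 0.00313% in the others. The Naive values of AASEANAYKVI, AASVANAYKVI and ALNTNAYKVI rest on few reads.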

How the results depend on the processing

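The counts of called members moved with the filter, the libraries and the block. Without a filter, 86 of 1395 tested members were higher and 730 lower in MP than in Naive (6.16 and 52.3%, beside 7.97 and 51.7% of all CDR3s). Tumour against MP then gave 61 and 171 of 377 (16.2 and 45.4%, beside 7.47 and 66.9%), and Tumour against Naive 51 and 1088 of 1283 (3.98 and 84.8%, beside 1.61 and 90.3%). With at least 50 reads the lower counts were 43 of 90, 24 of 61 and 48 of 88 in the same order of comparisons (47.8, 39.3 and 54.5%, beside 48.6, 60.8 and 79.7% of all CDR3s). With 1 library left out, the higher and lower counts were 19 to 31 and 101 to 163 for MP against Naive, 14 to 20 and 22 to 50 for Tumour against MP, and 17 to 26 and 157 to 218 for Tumour against Naive. Of the members tested, 6.74 to 9.94%, 14.3 to 28.2% and 6.49 to 10.9% were then higher in the same order. Over all CDR3s these shares were 9.68 to 12.7%, 5.27 to 11.6% and 2.33 to 3.79%. The lower members were 38.4 to 57.6%, 31.0 to 54.3% and 71.4 to 83.2%. Over all CDR3s the lower shares were 42.5 to 57.3%, 54.1 to 78.9% and 84.3 to 91.8%. Without MP 1 and MP 5 together, 15 of 267 tested members were higher in MP than in Naive (5.62%, beside 7.31% of all CDR3s), and Tumour against MP gave 12 higher and 9 lower of 52 (23.1 and 17.3%, beside 10.6 and 35.0%). With the library number as a replicate block, Tumour against MP gave 10 higher and 11 lower members, of 107 (9.35 and 10.3%, beside 3.42 and 15.9%), though these numbers belong to different mice. The block gave 25 higher and 158 lower for MP against Naive (7.86 and 49.7%, beside 10.3 and 51.2% of all CDR3s). For Tumour against Naive it gave 22 higher and 225 lower (8.03 and 82.1%, beside 2.68 and 91.2%). In 4 of the 5 MP libraries the best match by correlation was the Naive library of the same number, as a hint from the data and not the design. TMM moved the median log2 fold change of all CDR3s from -7.57 to -9.06 for Tumour against MP.

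The difference in the share of reads was -3.07 percentage points for MP against Naive (-3.24 to -2.89 with 1 library left out) and -2.43 without the top member. It was 6.33 for Tumour against MP (5.65 to 7.23) and 3.25 for Tumour against Naive (2.58 to 4.16), and without AAS loops it reversed to -0.57 and -3.12. The difference in the share of distinct CDR3s for MP against Naive, -0.14, reversed to 0.19 after folding and ran between -0.31 and 0.17 with 1 library left out. The difference in the share of full ends was -25.09 for MP against Naive (-25.92 to -23.46), -29.96 without the top member and -11.39 by distinct loop. For Tumour against MP it was -36.01 (-37.65 to -33.65), -21.49 and -22.41. The causes of these changes were not tested.

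The named loops kept their direction and their side of the threshold in 433 of 475 fits for MP against Naive, 420 of 445 for Tumour against MP and 406 of 439 for Tumour against Naive. Reversed log2 fold changes, none of them called in the fit as reported, were as follows. For MP against Naive, AASASANAYKVI turned to -2.71 with the block, -2.35 without MP 1 and -6.14 without MP 1 and MP 5 (-2.35 to 1.45 with 1 library left out), and AASASTNAYKVI to -0.13 with the block, -1.13 without MP 4, -0.00878 without Naive 1 and -0.00549 without Naive 3 (-1.13 to 0.67). For Tumour against MP, ALDPNAYKVI turned to -6.24 with the block, -8.79 without Tumour 2 and -0.0138 without MP 2 or MP 3 (-8.79 to 2.15), ALSDTNAYKVI to -0.16 with the block, and AVRDTNAYKVI to -1.13 with the block and -0.15 without Tumour 3 (-0.15 to 2.64). For Tumour against Naive, ALNAYKVI turned to -5.62 with the block and -6.87 without Tumour 4 (-6.87 to 3.12), and ALVDTNAYKVI to -4.51 with the block and -6.32 without Tumour 1 (-6.32 to 3.76). Loops near the filter of 10 reads limit the counts at this depth.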
